A study of Mus musculus with 6 samples.

Results

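The genes described here are 10 mucin and goblet cell secretory genes: the gel-forming mucins Muc5ac and Muc5b, the membrane mucins Muc1, Muc4, Muc16 and Muc20, and the secretory genes Agr2, Spdef, Tff2 and Gcnt3. They were taken by symbol from 19938 genes measured on 6 Affymetrix mouse gene arrays, and each had 1 row whose annotation named that gene alone. The arrays held RNA from larger proximal airways, taken at 9 weeks of age from mice with a mixed C57BL/6 and 129X1 strain background and dissected with forceps and scissors from stained sections of flash-frozen lung. The 3 control arrays came from mice labelled Scgb1a1-Cre. The 3 mutant arrays came from mice labelled Scgb1a1-cre:Foxp1flox/flox:Foxp4flox/flox. All 6 labels thus name the driver, and the mutant labels alone name floxed alleles of the forkhead transcription factor genes Foxp1 and Foxp4. The control labels do not state the Foxp1 and Foxp4 alleles. The Scgb1a1 promoter is active in club cells of the airway lining. Which cells of the dissected wall had lost the genes was not examined here. The labels do not say whether each array is 1 mouse or a pool.

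Airway mucus is a gel built from the secreted mucins Muc5ac and Muc5b, very large glycoproteins that club and goblet cells fold, cover with O-linked sugars, pack into granules and release. Membrane mucins stay on the cell surface and line the space around the cilia. Goblet cells are scarce in healthy mouse airways and become abundant in allergic inflammation, when Spdef and Foxa3 drive mucous differentiation under the influence of interleukin 13. The series concerns the airway epithelium in asthma, and the comparison of mutant with control airways asks whether the mucus programme differs when Foxp1 and Foxp4 are targeted in club cells.

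Values are log2 expression values, so a difference of 1 is a 2-fold difference. Array medians lay between 5.89 and 5.95 and lower quartiles between 4.42 and 4.50. No detection calls were used here, so a level near the lower quartile cannot be called present or absent. The targeted genes were lower in every mutant array than in every control array. Foxp1 had a log2 difference of -0.23 (SE 0.085, limma adjusted p = 0.444) and Foxp4 of -0.69 (SE 0.20, adjusted p = 0.339), and neither passed the threshold of 0.05. Which exons the probe sets cover and which are floxed was not examined here, so the labels are checked in part only. Markers of the airway lining were well represented. The mean of 14 club cell genes was 11.30 to 11.40 in controls and 11.48 to 11.52 in mutants. That of 17 genes shared by epithelial cells was 9.35 to 9.62 in controls and 9.29 to 9.85 in mutants. Control 1 stood apart from the other controls, correlating over genes at a mean of 0.975 with them and 0.981 with the mutants. Control 1 and mutant 2 also had the highest cardiac muscle marker means of their groups (10.89 and 10.64). In bulk tissue, fewer cells of a type and less RNA per cell cannot be told apart.

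The 10 genes did not share 1 direction. Agr2, Muc5b, Tff2, Gcnt3 and Muc1 read higher in all 3 mutant arrays than in any control array, with mean differences between 1.21-fold for Muc1 and 2.51-fold for Agr2. Muc5ac, Spdef, Muc4, Muc16 and Muc20 had overlapping groups, and the means of the last 3 were lower in mutants. After Benjamini-Hochberg adjustment over all genes, limma called 0 of 10 members, where 0.266% of all genes passed. The mean was higher in mutants for 7 of 10 members, as for 54.6% of all genes. At an unadjusted p under 0.05 there were 5 of 10 members, all higher in mutants, where 5.90% of all genes were higher and 4.17% lower at that p. Groups that did not overlap with mutants higher were seen for 5 of 10 members and for 9.33% of all genes, and with mutants lower for 0 of 10 members and 5.64% of all genes. The median log2 difference was 0.22 over the members and 0.02 over all genes.

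**Figure D1:**
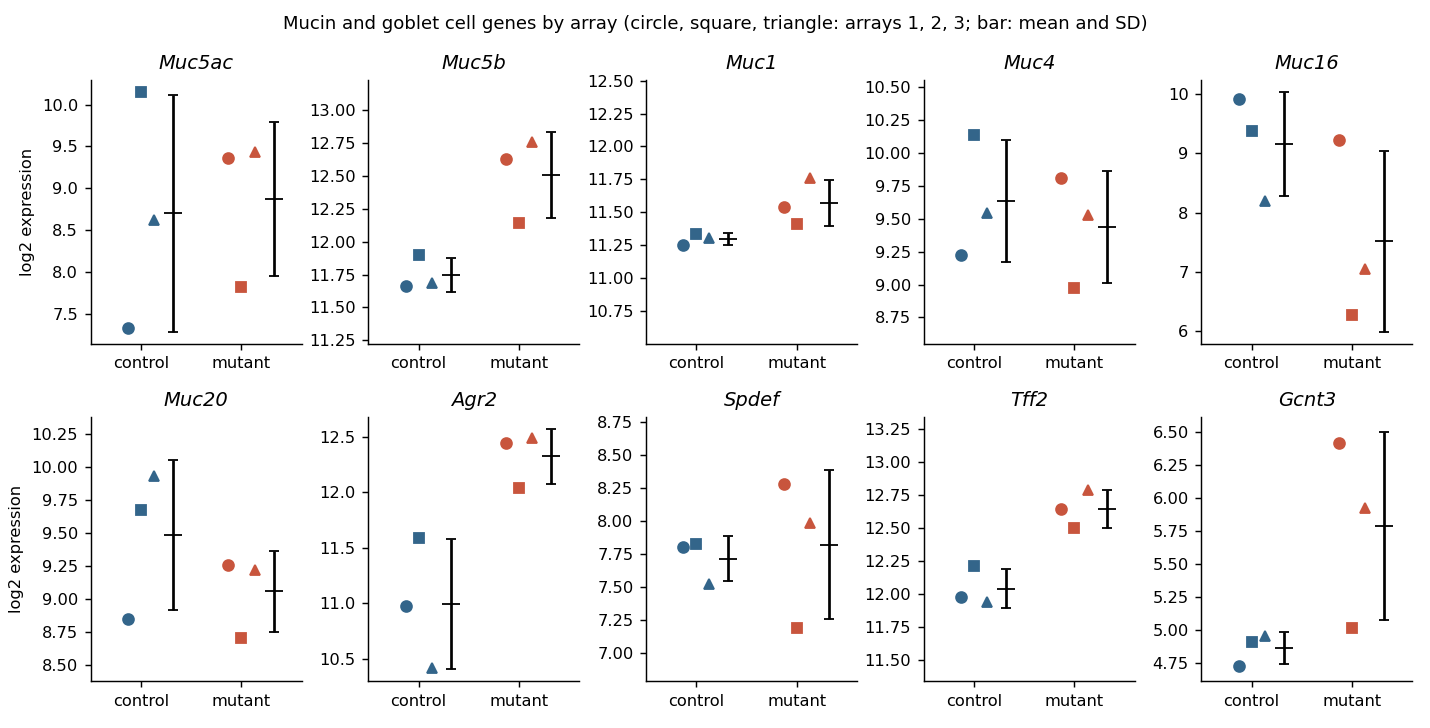
Log2 expression of each of the 10 genes on the 3 control arrays (blue) and 3 mutant arrays (red), with the group mean and SD beside the points; each panel has its own scale. Agr2, Muc5b, Tff2, Muc1 and Gcnt3 have all mutant points above all control points, and mutant 2 (red square) is the lowest mutant point in all 10 panels.

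Muc5b, the main gel-forming mucin of healthy airways, came first among the gel formers (probe set 10559095). Its control arrays read 11.66, 11.90 and 11.69 and its mutant arrays 12.63, 12.14 and 12.76. Every mutant array lay above every control array, with mutant 2 nearest to them. The mean went from 11.75 ± 0.13 (SD, n = 3) in controls to 12.51 ± 0.33 in mutants, a 1.69-fold difference (log2 0.76, SE 0.17, 95% interval 0.34 to 1.18). It did not pass limma's test over all genes (adjusted p = 0.218). An exact two-sided permutation test gave p = 0.1, the smallest value that 3 against 3 arrays allow.

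Muc5ac, the gel former that allergic inflammation induces in goblet cells, had the widest spread among its controls of the 10 genes (probe set 10559043). Its controls read 7.33, 10.15 and 8.62 and its mutants 9.36, 7.82 and 9.44. Both the lowest and the highest array were controls, and the groups overlapped throughout. The log2 difference was 0.17 (SE 0.77, adjusted p = 0.970), with a 95% interval from -1.67 to 2.01 that leaves room for a more than 2-fold difference in either direction. Its sign turned without control 1 (-0.51), without mutant 1 (-0.075) and without mutant 3 (-0.11). Clca1 and Itln1, both products of activated goblet cells and named here after their values were seen, ordered the control arrays as Muc5ac did, with control 1 lowest and control 2 highest. Clca1 read 7.49, 10.62 and 9.14 in controls and 11.53, 10.24 and 11.18 in mutants (adjusted p = 0.489 for a log2 difference of 1.90, SE 0.78). Itln1 read 5.50, 10.39 and 8.93 in controls and 7.18, 5.55 and 5.63 in mutants (adjusted p = 0.632 for a log2 difference of -2.16, SE 1.21). The spread among controls for these 3 genes thus reached an SD of 1.41 for Muc5ac, 1.57 for Clca1 and 2.51 for Itln1, against 0.13 for Muc5b.

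Muc5ac and Muc5b stand next to each other on mouse chromosome 7, preceded by the gel-forming mucin genes Muc6 and Muc2 of gut and stomach, in the gene order of assembly GRCm38.p6. Muc2 (controls 4.73 ± 0.03, mutants 4.75 ± 0.07) and Muc6 (4.85 ± 0.05 and 4.87 ± 0.06) read little above the arrays' lower quartiles. Their log2 differences were 0.02 and 0.01, with SE 0.077 for each. The Muc5b value minus the Muc5ac value within each array overlapped between groups (3.05 ± 1.29 in controls and 3.63 ± 0.60 in mutants, exact two-sided permutation p = 0.5, 0.7 after adjustment over the 3 pairs of neighbouring genes compared this way).

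Agr2 encodes a disulfide isomerase of the endoplasmic reticulum that is needed for mucin folding, and it showed the largest difference among the 10 genes that was higher in mutants (probe set 10395365). Controls read 10.98, 11.59 and 10.42, and mutants read 12.44, 12.04 and 12.49. The groups did not overlap, and the controls were more spread than the mutants. The means were 10.99 ± 0.59 and 12.32 ± 0.25, a 2.51-fold difference (log2 1.33, SE 0.30, 95% interval 0.62 to 2.04), which did not pass over all genes (limma adjusted p = 0.211, exact permutation p = 0.1). With values centred on the epithelial marker mean the log2 difference was 1.15 and passed (limma adjusted p = 0.0144). In that setting 254 of 19938 genes passed, against 53 as reported. Over all 15 other settings the adjusted p of Agr2 ran from 0.0144 to 0.59.

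Agr3, a homolog of Agr2 known from ciliated cells, is its neighbour on chromosome 12 and differed in the other direction. It read 8.65, 9.06 and 8.48 in controls and 8.13, 7.32 and 8.15 in mutants, again without overlap (log2 difference -0.86, adjusted p = 0.355). Within each array Agr2 minus Agr3 was 2.33, 2.53 and 1.94 in controls and 4.31, 4.72 and 4.34 in mutants. The mean of this difference was 2.27 ± 0.30 against 4.46 ± 0.23, larger by 2.19 log2 units in mutants (exact two-sided permutation p = 0.1, adjusted p = 0.3 over the 3 pairs). With Agr2 higher and Agr3 lower in every mutant, the difference had to separate the groups, so this p adds nothing to the single genes. Markers of ciliated cells were lowest in mutant 2, with a mean over 17 genes of 8.66 to 8.94 in controls and 8.20 to 8.96 in mutants, and their part in the Agr3 value was not tested.

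The start regions of 6 of the 10 genes (Muc1, Muc4, Muc16, Muc20, Agr2 and Spdef) were found in the RefSeq promoter table for GRCm38.p6. The 250 bases before the start were searched on both strands for TGTTTAC, a motif bound by forkhead factors including the Foxp family, for the looser TGTTTNC, which includes it, for CCGGAT, a core bound by Spdef, for GACGTG, a core bound by the secretory stress factor Xbp1, and for the palindromic Stat6 motif. Agr2 and Muc1 are shown because their groups did not overlap, and Muc20 because it alone held TGTTTAC. Letters in capitals are motif matches, and each sequence runs 5′ to 3′ on the gene's own strand.
Agr2, GRCm38.p6 chr12:35992675-35992924, plus strand: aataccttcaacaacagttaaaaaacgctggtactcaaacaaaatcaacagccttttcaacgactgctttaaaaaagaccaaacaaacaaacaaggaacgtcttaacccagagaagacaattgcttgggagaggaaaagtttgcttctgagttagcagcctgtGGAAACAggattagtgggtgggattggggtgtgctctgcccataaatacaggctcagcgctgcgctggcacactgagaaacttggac
Muc1, GRCm38.p6 chr3:89228806-89229055, plus strand: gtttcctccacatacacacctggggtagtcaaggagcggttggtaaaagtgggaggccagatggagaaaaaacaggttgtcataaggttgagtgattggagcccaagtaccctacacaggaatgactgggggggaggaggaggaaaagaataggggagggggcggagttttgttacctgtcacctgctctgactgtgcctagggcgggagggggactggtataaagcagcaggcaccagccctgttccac
Muc20, GRCm38.p6 chr16:32797436-32797685, minus strand: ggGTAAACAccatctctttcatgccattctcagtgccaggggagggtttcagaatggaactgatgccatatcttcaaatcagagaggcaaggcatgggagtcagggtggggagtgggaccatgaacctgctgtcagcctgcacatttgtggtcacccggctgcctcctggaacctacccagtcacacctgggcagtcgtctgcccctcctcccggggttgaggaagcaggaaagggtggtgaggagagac

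The Agr2 window held 1 match to the looser forkhead motif, GGAAACA, from 87 to 81 bases before the start, on the opposite strand. The Muc20 window held GTAAACA, the opposite-strand form of TGTTTAC, from 248 to 242 bases before the start. Of all 32851 promoters in the table, 3.17% held TGTTTAC and 17.8% held TGTTTNC in the same window. The Spdef window held GACGTG, as did 5.20% of promoters. CCGGAT (4.94% of promoters) and the Stat6 motif (5.85%) had no match in the 6 windows. These matches describe letters and are no evidence of binding.

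Tff2, a trefoil peptide secreted with mucin that supports epithelial repair, had the smallest p of the 10 genes (probe set 10449661). Controls read 11.98, 12.21 and 11.94 and mutants 12.64, 12.50 and 12.79. The groups did not overlap and both were narrow. The means of 12.04 ± 0.15 and 12.65 ± 0.14 differed 1.52-fold (log2 0.60, SE 0.12, 95% interval 0.33 to 0.88). Of all genes, 0.978% had a smaller p, yet the difference did not pass over all of them (limma adjusted p = 0.159, exact permutation p = 0.1). The other trefoil genes, Tff3 and Tff1, flank Tff2 on chromosome 17. Tff1, a peptide of gastric pit cells, had a log2 difference of 0.40 (SE 0.17, adjusted p = 0.518), and Tff3, the peptide of intestinal goblet cells, of 0.18 (SE 0.098, adjusted p = 0.617). In controls Tff3 read 4.86 ± 0.11, near the arrays' lower quartiles, and Tff1 read 5.42 ± 0.07, between the lower quartiles and the medians.

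Gcnt3 encodes the glycosyltransferase that builds branched core structures on mucin O-glycans (probe set 10594758). It read 4.73, 4.91 and 4.95 in controls and 6.42, 5.02 and 5.93 in mutants. All mutants lay above all controls, but mutant 2 by less than 0.1. The log2 difference was 0.92 (SE 0.33, 95% interval 0.12 to 1.73), 1.90-fold, and did not pass (limma adjusted p = 0.439). The control mean of 4.87 lay near the lower quartile of the arrays, where RMA compresses differences, so the fold is as measured. The difference was 0.61 without mutant 1 and 1.31 without mutant 2.

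Spdef, the transcription factor that drives goblet cell differentiation and acts on Agr2 and mucin genes, did not separate the groups (probe set 10449377). It read 7.80, 7.82 and 7.52 in controls and 8.28, 7.19 and 7.99 in mutants. Mutants 1 and 3 lay above the controls and mutant 2 below them. The log2 difference was 0.11 (SE 0.28, 95% interval -0.56 to 0.77, adjusted p = 0.946). It was 0.42 without mutant 2 and -0.12 without mutant 1.

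**Figure D2:**
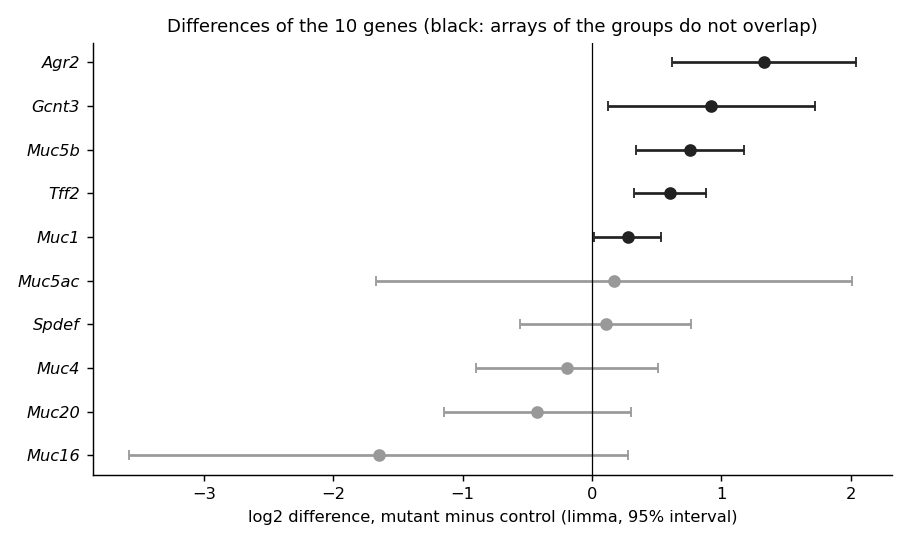
Log2 difference of mutant minus control for each gene, with limma's 95% interval for that gene alone; black marks genes whose arrays do not overlap between groups. The intervals of Agr2, Gcnt3, Muc5b, Tff2 and Muc1 lie above 0 before adjustment, and none of the 10 passed after it.

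Among the membrane mucins, Muc1, a signalling mucin of the apical surface, differed by little, and least in mutant 2 (probe set 10493474). Controls read 11.25, 11.34 and 11.31, and mutants read 11.54, 11.41 and 11.76. The groups did not overlap. The log2 difference was 0.27 (SE 0.11, 95% interval 0.02 to 0.53), 1.21-fold, and did not pass (limma adjusted p = 0.475). Alveolar type 2 cells also express Muc1. A list of 10 markers of those cells, chosen after seeing the data, had means of 10.72 to 10.86 in controls and 11.10 to 11.29 in mutants, and its part in the Muc1 value was not tested. With values centred on the epithelial marker mean the Muc1 difference was 0.097.

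Muc16, the largest membrane mucin, had the widest difference of the 10 genes and also a wide spread (probe set 10591169). Controls read 9.92, 9.37 and 8.20, and mutants read 9.22, 6.27 and 7.05. Mutant 1 lay among the controls and the other mutants below them. The means were 9.16 ± 0.88 and 7.52 ± 1.53, a difference of -1.65 on the log2 scale (SE 0.80, 95% interval -3.58 to 0.28), 3.14-fold lower in mutants, which did not pass (limma adjusted p = 0.569, exact permutation p = 0.2). It was -2.50 without mutant 1 and -1.03 without mutant 2. Centred on the epithelial marker mean it was -1.83 and passed (limma adjusted p = 0.0150), in a setting where 254 of 19938 genes passed. Over all 15 other settings the adjusted p of Muc16 ran from 0.0150 to 0.859. Muc16 is also known from mesothelium. A mesothelial list of 10 genes, chosen after seeing the data, had means of 6.13 to 6.74 in controls and 5.87 to 6.30 in mutants. In it Msln, which encodes a partner of Muc16, read 9.97, 10.89 and 10.15 in controls and 8.85, 7.53 and 7.48 in mutants (log2 difference -2.38), but the list median was -0.14. Rspo1 (-0.46) was also lower in every mutant. Upk1b (1.16) was higher in every mutant, and Wt1 (0.13) and Upk3b (-0.22) had overlapping groups. The part of mesothelial cells in the Muc16 value was not tested.

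The gene whose profile over the 6 arrays came closest to that of Muc16, of 3081 genes compared, was Bpifa1, a secreted defence protein of the upper airway lining. The root mean square distance between their mean-centred values was 0.19, against 0.49 for the next gene, Gtsf1l. Bpifa1 read 12.70, 12.24 and 10.81 in controls and 11.67, 9.18 and 10.07 in mutants (adjusted p = 0.538 for a log2 difference of -1.61, SE 0.73). This pair was singled out after its values were seen. Ltf, lactoferrin of glands and airway secretory cells, put the same array lowest in each group (11.65, 11.26 and 10.81 in controls, and 11.53, 9.56 and 10.44 in mutants). Such an order is common, since control 3 was the lowest control for 32.7% of all genes and mutant 2 the lowest mutant for 42.3%.

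Muc4 and Muc20 lie next to each other on chromosome 16. Muc4, a tall mucin of ciliated and secretory cells, read 9.22, 10.13 and 9.54 in controls and 9.81, 8.97 and 9.52 in mutants (probe set 10435112). The groups overlapped. The log2 difference was -0.20 (SE 0.29, 95% interval -0.90 to 0.51, adjusted p = 0.899) and turned to 0.055 without control 2 and to 0.035 without mutant 2. Muc20, a small membrane mucin, read 8.85, 9.67 and 9.93 in controls and 9.26, 8.71 and 9.22 in mutants (probe set 10439087). Controls 2 and 3 lay above all mutants, and control 1 lay among them. The log2 difference was -0.42 (SE 0.30, 95% interval -1.15 to 0.30, adjusted p = 0.715), and ran from -0.74 without control 1 to -0.20 without control 3, with -0.25 without mutant 2. The Muc4 value minus the Muc20 value overlapped between groups (0.15 ± 0.47 and 0.37 ± 0.15, exact permutation p = 0.7, adjusted p = 0.7).

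**Figure D3:**
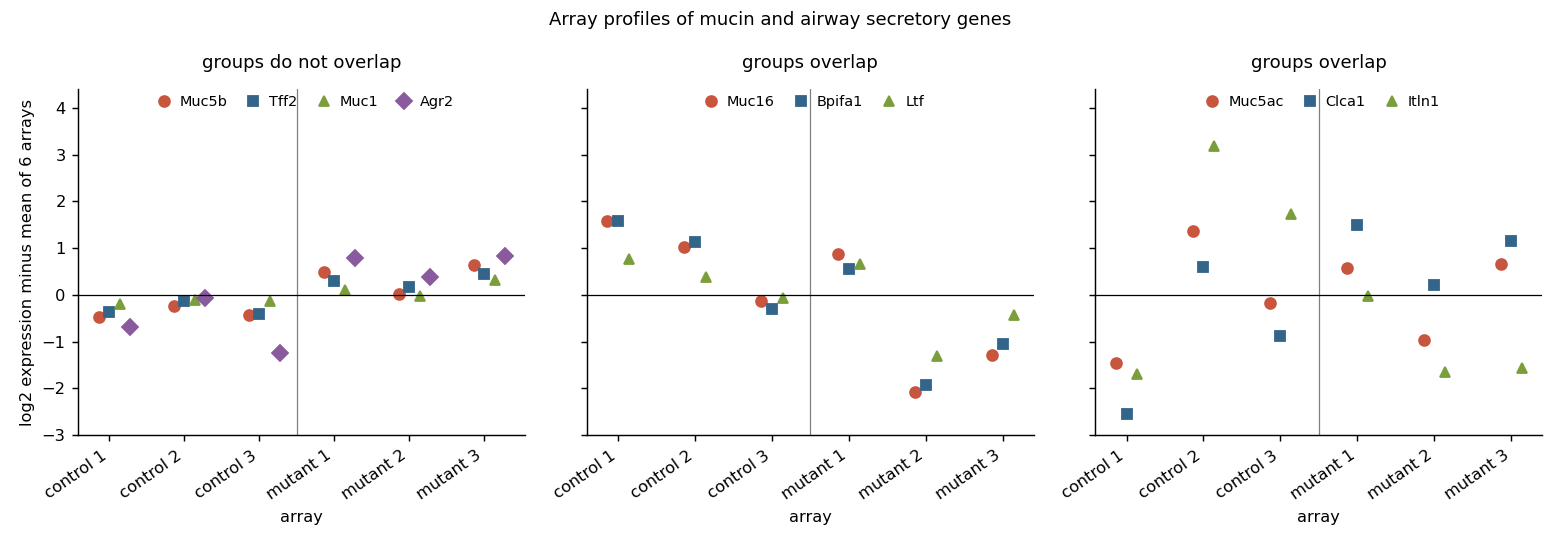
Log2 expression minus the gene's mean over the 6 arrays, for each array, with controls left and mutants right of the grey line. Muc5b, Tff2, Muc1 and Agr2 sit higher in all mutants, Muc16 follows Bpifa1 from array to array, and Muc5ac, Clca1 and Itln1 share the order of the controls.

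The position of single arrays was shared by the members. Mutant 2 was the lowest mutant array for all 10 genes, as it was for 42.3% of all genes. Control 2 was the highest control for 7 of 10, as it was for 32.9% of all genes. The same arrays stood out for epithelial markers: mutant 2 was lowest for 16 of 17 genes shared by epithelial cells and for 17 of 17 ciliated cell genes. The epithelial marker mean was 9.45, 9.62 and 9.35 in controls 1 to 3, against 9.81, 9.29 and 9.85 in mutants 1 to 3. For the 14 club cell markers mutant 2 was lowest for 5 genes. When arrays were centred on the epithelial marker mean, the median of all genes shifted by -0.18. That centring also made the spread of genes more alike, so limma drew each error more strongly to a common value (26.1 prior degrees of freedom against 2.49), and the SE of Muc16 was 0.41 there against 0.80. On that scale 254 of 19938 genes passed, against 53 as reported. Among them were 2 members, Agr2 and Muc16, in opposite directions. Muc5b (0.58, limma adjusted p = 0.427), Tff2 (0.43, adjusted p = 0.858) and Gcnt3 (0.75, adjusted p = 0.227) did not pass. Leaving out control 1 and mutant 2 together was tried after the values were known, and 2 members then passed: Muc5b (0.90, limma adjusted p = 0.0159) and Gcnt3 (1.24, adjusted p = 0.0189). In that setting 963 of 19938 genes passed.

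Profiles over the arrays were compared by the root mean square distance of mean-centred values. The closest pairs of members were Muc5b and Tff2 (0.14 log2 units over the 6 arrays) and Muc1 and Tff2 (0.18). The farthest pair was Muc16 and Agr2 (1.74). Among all genes compared, the nearest to Muc5b were Rab15 (0.064), Piezo1 (0.070) and Ebp (0.079), and the nearest to Tff2 were Rom1, Smim31 and Acer3 (0.057 to 0.058). Agr2 was nearest to Sdcbp2 (0.20), Pgm2l1 (0.21) and Syt17 (0.24), whose own log2 differences were 1.24, 1.25 and 1.25. Differences near that of Agr2 follow from choosing genes by this distance. Gcnt3 was nearest to Serpinb11 (0.21), Ifit1 (0.23) and G6pc3 (0.24), and Muc1 to Tchh, Tirap and Polk (0.13 to 0.14). Only genes with an SD of at least 0.3 over the arrays were compared, and that of Muc1 was 0.19, so genes that vary as little as Muc1 were not among them. None of these 15 neighbours passed over all genes (0 of 15), where 0.266% of all genes did. They were chosen for profiles close to those of members that did not pass, so this count follows largely from the choice. Each profile has only 6 points.

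**Figure D4:**
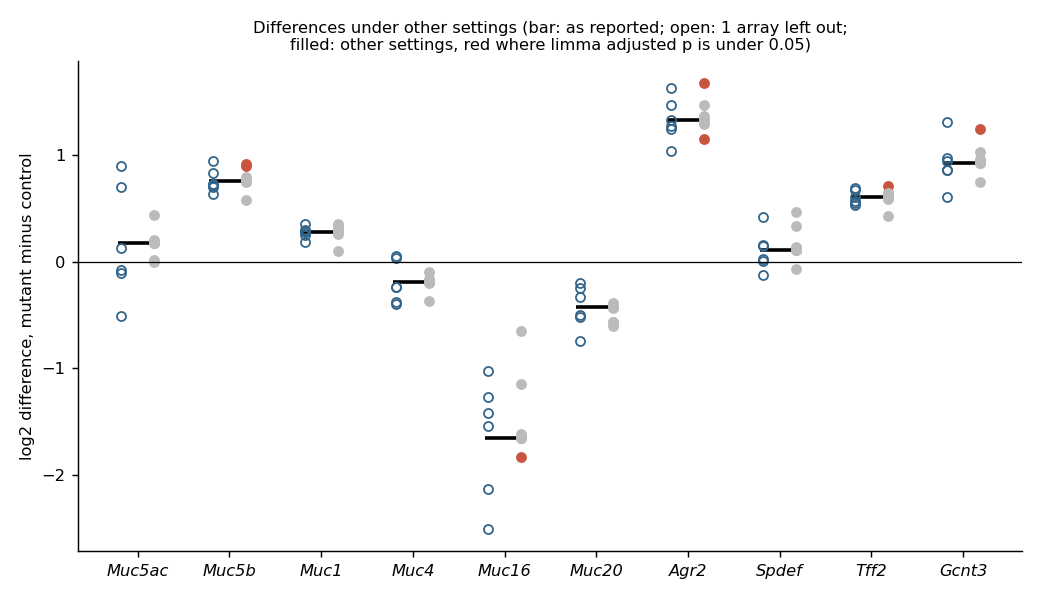
Log2 difference of each gene as reported (bar), with 1 array left out (open circles) and under the other settings (filled, red where the limma adjusted p is under 0.05). Agr2, Muc5b, Tff2, Gcnt3 and Muc1 stay above 0 and Muc16 and Muc20 below 0 in every setting, while Muc5ac, Muc4 and Spdef fall on both sides.

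Other genes of the mucus pathway were followed in 7 lists, with 131 measured genes outside the members. Of these, 1 passed as lower in mutants, where 0.0301% of all genes did, and none as higher. It was Bpifb1, a secreted BPI fold protein of secretory cells. It read 12.42, 12.40 and 11.90 in controls and 8.84, 8.19 and 9.01 in mutants, and fell by 3.56 log2 units (limma adjusted p = 0.0067, SE 0.25). The call was lost without control 2 (-3.48, adjusted p = 0.0570) and with the replicate number as a block (adjusted p = 0.129). The medians of the lists lay between -0.0015 and 0.20, beside 0.02 for all genes.

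Among 12 other mucin genes none passed, with 2 at an unadjusted p under 0.05, both higher. Of all genes, 5.90% were higher and 4.17% lower at that p. Muc13, a membrane mucin of gut epithelium, had a log2 difference of 0.84 (SE 0.27, adjusted p = 0.395) from a control mean of 4.19, below the lower quartile of the arrays. Cd164, a small sialomucin, had one of 0.23. Of 17 goblet cell products, 4 were higher and 3 lower at an unadjusted p under 0.05, Bpifb1 included. Besides Bpifb1 and Agr3, the smallest p belonged to Retnlb (0.38, adjusted p = 0.349), a resistin-like protein, and to the transglutaminase gene Tgm2 (0.42, adjusted p = 0.370). Retnlb read 3.86 ± 0.15 in controls and 4.24 ± 0.14 in mutants, below the lower quartiles of the arrays.

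The enzymes that build mucin O-glycans gave small differences. Of 26 measured, none passed. At an unadjusted p under 0.05, 6 were higher and 1 lower (5.90% and 4.17% of all genes). The groups did not overlap for C1galt1, which adds the galactose of the core structure that Gcnt3 branches (log2 difference 0.37, SE 0.076, adjusted p = 0.185). The same held for C1galt1c1, the chaperone that C1galt1 needs (0.44, SE 0.10, adjusted p = 0.216). C1galt1 read 9.01, 9.00 and 9.00 in controls and 9.37, 9.44 and 9.31 in mutants, so both groups were narrow. The sialyltransferase gene St3gal4 (0.45) and Galnt11 (0.27), an enzyme that starts O-glycans, also lay higher in every mutant.

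Of 19 genes for mucin folding and granule release, none passed. At an unadjusted p under 0.05, 4 were higher and 1 lower (5.90% and 4.17% of all genes). Unc13b, which primes granules for fusion, had a log2 difference of 0.62 (SE 0.13, adjusted p = 0.201). The fusion proteins of granules had smaller ones, Stx3 of 0.34 and Vamp8 of 0.28. Fkbp11, a folding protein of secretory cells that plasma cells also express, differed by -0.73 (adjusted p = 0.355). It read 6.47, 7.25 and 7.30 in controls and 6.28, 6.29 and 6.24 in mutants. B and plasma cell markers were also highest in controls 2 and 3, with means over 13 genes of 6.31, 9.11 and 9.00 for the controls against 5.91, 7.43 and 6.11 for the mutants, and their part in the Fkbp11 value was not tested.

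Of 13 genes that set the water and salt of mucus, none passed, 11 had a higher mean in mutants (54.6% of all genes) and 5 were higher at an unadjusted p under 0.05 (5.90% of all genes). The list median was 0.20, and the epithelial marker list also lay higher in mutants, with a median of 0.16 and 13 of 17 genes above 0. The hydration list mean was 7.86 to 7.99 in controls and 8.15 to 8.35 in mutants. In mutant 2 it was 8.15, while the epithelial marker mean there, 9.29, was the lowest of the 6 arrays. The part of epithelial content in these values was not tested. Slc12a2, the chloride loader of secreting epithelia, read 10.26, 10.02 and 9.76 in controls and 10.79, 10.81 and 11.01 in mutants (adjusted p = 0.112 for a log2 difference of 0.85, SE 0.14). Slc26a9, an apical chloride transporter, had a difference of 1.17 (SE 0.21, adjusted p = 0.131). The sodium channel, which draws water from the surface, had its subunit genes Scnn1g at 0.89 (adjusted p = 0.122), Scnn1b at 0.90 (adjusted p = 0.172) and Scnn1a at 0.0027 (adjusted p = 0.996). Cftr, the chloride and bicarbonate channel, stood at -0.40 (adjusted p = 0.552), with means of 4.77 in controls and 4.37 in mutants, near the lower quartiles. For Slc12a2, Slc26a9, Scnn1g and Scnn1b every mutant array lay above every control, as for 9.33% of all genes. Mutant 2 was the lowest mutant for 4 of 13 genes of the list, as for 42.3% of all genes.

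Regulators of goblet cell fate gave no call among 28 measured genes. At an unadjusted p under 0.05, 2 were higher and 1 lower (5.90% and 4.17% of all genes). The ligand gene Il13 read 5.25 ± 0.21 in controls and 5.20 ± 0.06 in mutants (adjusted p = 0.946 for a log2 difference of -0.05, SE 0.12). In the Notch pathway, which directs airway cells towards secretory fates, the receptor gene Notch2 was lower in every mutant (-0.38, SE 0.087, limma adjusted p = 0.217). The ligand gene Jag1 (0.40) and the target gene Hes1 (0.41) were higher in every mutant. Notch1 (0.14), Notch3 (-0.013), Jag2 (0.0050) and Dll1 (-0.21) had overlapping groups. In the whole list 3 genes were higher and 1 lower without overlap, as were 9.33% and 5.64% of all genes. Foxa3, a driver of goblet cell differentiation, read 5.43, 6.35 and 5.62 in controls and 7.51, 5.81 and 7.10 in mutants, with overlap through mutant 2 (log2 difference 1.01, SE 0.46, adjusted p = 0.543).

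Submucosal glands also make Muc5b, and their markers showed no common direction. Of 16 measured genes none passed, and the list means overlapped (6.45 to 6.74 in controls, 6.46 to 6.59 in mutants). At an unadjusted p under 0.05, 2 were higher and 1 lower (5.90% and 4.17% of all genes). Lyz1, a lysozyme that alveolar type 2 cells also make, had a log2 difference of 0.88 (adjusted p = 0.126), Dmbt1, a scavenger protein of mucosal surfaces, of -1.27 (adjusted p = 0.486), the folate receptor gene Folr1 of 0.23 and Tcn2, a vitamin B12 carrier, of -0.19.

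**Figure D5:**
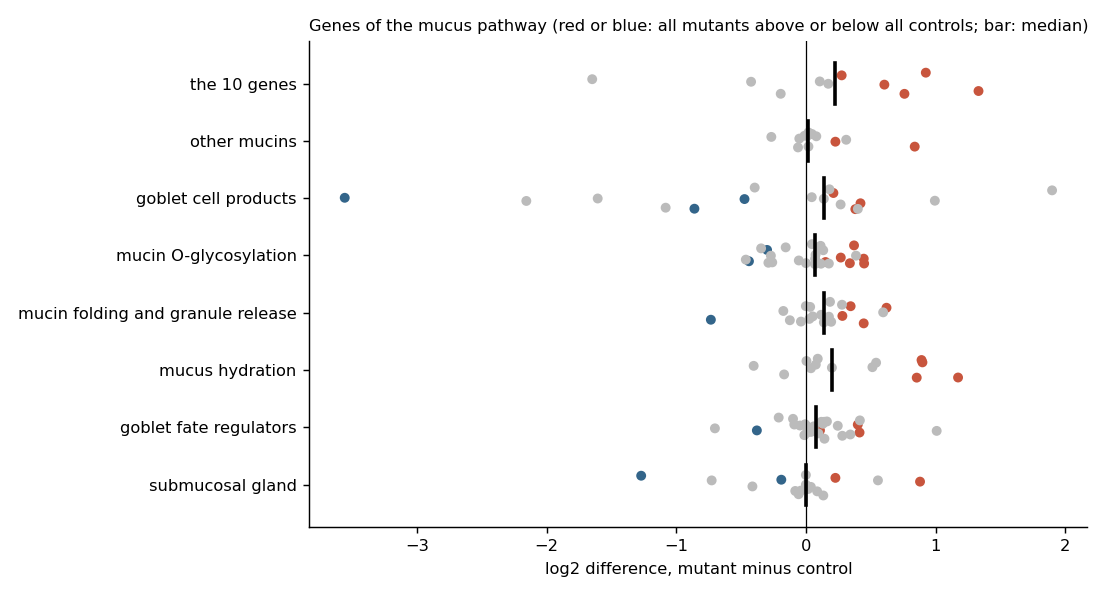
Log2 difference of mutant minus control for the 10 genes and for each gene of 7 mucus pathway lists (points), with the list median (bar); red or blue marks genes whose mutant arrays all lie above or below the controls. The far left point is Bpifb1 (-3.56), and the median of the mucus hydration list is 0.20.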

How the data were processed

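The authors deposited 1 log2 expression value per probe set for each array. Oligo, RMA and limma are named, without versions, in the submitters' processing notes. RMA scales arrays to a shared distribution and compresses differences of dim probe sets. Joint normalisation of the arrays, scan dates and detection calls are not given in the sources used, so no batch was tested. Of 35556 rows, 21789 named exactly 1 gene in GEO's platform annotation, 1621 several and 12146 none. This gave 19938 genes, each represented by its brightest row on average.

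The comparison of both groups used lmFit and eBayes of limma 3.58.1 under R 4.3.3, with a single term for genotype, without a filter, two-sided, with Benjamini-Hochberg adjustment over all genes and a threshold of 0.05. Intervals are limma's 95% intervals for 1 gene, unadjusted. The labels do not say that replicates came from separate mice, so the p-values reflect the spread of these arrays alone, part of which may be technical. Precision is limited by the number of arrays. The replicate numbers were not taken as pairing the arrays, since deviations of same-numbered arrays correlated at 0.14, -0.09 and -0.04. No arrays were identical. The members and lists were chosen with earlier results of these data known, and the mesothelial and alveolar type 2 lists after seeing these values. Elf3 and Ehf, Aqp3 and Lyz1 each stand in more than 1 list.

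Named genes were all members, Foxp1 and Foxp4, up to 4 genes of each pathway list by smallest p, and the 3 genes nearest in profile to each member whose groups did not overlap, among genes with an SD of at least 0.3. Olfactory and vomeronasal receptors, predicted transcripts and small RNAs were left out there. Muc2, Muc6, Tff1 and Tff3 were named as chromosomal neighbours and Il13 as the ligand. Named after their values were seen were Bpifa1, Ltf, Clca1, Itln1, Gtsf1l, Msln, Upk1b, Wt1, Upk3b, Scnn1a and Cftr. The same holds for Rspo1, Notch1, Notch3, Jag2, Dll1, Dcpp2, Dcpp3, Pip, Prol1, Bpifb9a and Bpifb9b. Alternatives were repeated quantile normalisation, centring on the median or on the epithelial marker mean, leaving out the lowest 40% of genes, an intensity trend, the mean of a gene's rows, array weights, the replicate block, and leaving out arrays. On data simulated for 3 against 3 arrays and 19938 genes, limma called 84% of 100 genes raised 2-fold, 99% of 100 raised 8-fold and 8 unchanged genes. The simulated noise was independent between genes, with SDs already drawn to a common value by limma. Variation that genes share within an array was absent, so these shares do not give the power in the real arrays. Python 3.11.15, pandas 2.3.3 and matplotlib 3.10.9 served for tables and figures.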

Additional observations from a re-analysis of the deposited data

How the results depend on the processing

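The count of 53 genes passing over all genes became 254 with arrays centred on the epithelial marker mean, 82 with an intensity trend, 291 with array weights, 963 without control 1 and mutant 2 (chosen after seeing the data), and 9 to 388 with 1 array left out (9 without control 2, 388 without control 1). Of the 10 members, 0 passed as reported and in each setting that left out 1 array, 2 passed with epithelial centring (Agr2 and Muc16), 3 with array weights (Agr2, Muc5b and Tff2) and 2 without control 1 and mutant 2 (Muc5b and Gcnt3). In the pathway lists, 1 gene passed as reported, 6 with epithelial centring, 4 with array weights, 10 without control 1 and mutant 2, and 0 to 5 with 1 array left out. The cause of these shifts was not tested. With the replicate number as a block, 0 of 19938 genes and 0 genes of the pathway lists passed, on 2 residual degrees of freedom. In that fit Agr2 had a log2 difference of 1.33 (adjusted p = 0.410) and Muc5b of 0.76 (adjusted p = 0.414).

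Agr2, Muc5b, Tff2, Gcnt3, Muc1, Muc16 and Muc20 kept their direction in all settings run. Epithelial centring turned Muc5ac to -0.0065 and Spdef to -0.072. With 1 array left out the log2 difference ran from -0.51 to 0.90 for Muc5ac, from -0.40 to 0.055 for Muc4 and from -0.12 to 0.42 for Spdef. Gcnt3 was not tested with the lowest 40% of genes left out, since its mean lay among them. Signal over background could not be judged for dim probe sets such as that of Gcnt3.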
